A study of Mus musculus with 6 samples.

Results

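The genes described here are 48 genes of DNA replication and S phase, from the proteins that mark replication origins to the polymerases, the supply of nucleotides and histones, and the regulators that open S phase. A gene was counted as measured when a symbol column of the authors' comparison table named it, and its brightest probe over the 6 arrays was used. This found 47 of the 48 genes, with 57 probes, among 21064 genes and unnamed probes (rows) tested in all. The 47 were well above background on all 6 arrays, so that no gene entered through one group alone. Ccne2, which encodes the second E-type cyclin, was not found by this rule. Its probe, matched by accession, was above background on 0 of 3 mutant and 0 of 3 control arrays.

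RNA of the dorsal forebrain was taken from single E11.5 mouse embryos and hybridised to 1-colour arrays, for 3 mutant and 3 control embryos. The labels call the groups mutant and control, and the mutated gene, its alleles and any Cre driver are not given in the sources used here. Mutant 1 and control 1 were littermates, as were mutant 2 and control 2, and mutant 3 and control 3. The study's title concerns Wnt/beta-catenin signalling and the fates of cortical precursors, and the comparison asks here whether transcripts of the replication machinery differ between the mutant and the control forebrain. Marker genes of radial glia, the dividing precursors of the cortex, were measured for 13 of 14, with Pax6 between 1.18 and 1.40 in mutants and between 0.87 and 1.04 in controls. A level is the log2 signal of a probe after subtraction of its array's own 75th percentile, a difference is mutant minus control on that log2 scale with its standard error (SE), and levels of different probes are not comparable. The 75th percentile of the processed signal ranged from 1206.9 to 1380.2 in mutants and from 1446.2 to 1833.2 in controls, and no spot was saturated. The 3 arrays in each group limit the precision of every value.

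Before a cell copies its genome, the origin recognition complex with Cdc6 and Cdt1 loads the ring of Mcm2 to Mcm7 onto origins, a step called licensing. Cyclin E with Cdk2 and the Dbf4-dependent kinase then start S phase, Cdc45 and the GINS complex turn the loaded ring into an active helicase, and polymerases held by the clamp Pcna copy the strands. Most of these genes are transcribed in late G1 and S phase under E2F factors, and in the E11.5 cortex they are used by radial glia, which divide at the ventricle. In whole tissue, fewer cycling cells and less RNA per cell cannot be told apart.

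The promoters of 4 members are shown first because E2F factors bind the promoters of many replication genes. Each is a RefSeq window of the build GRCm38.p6, from 250 bases before to 50 after the annotated start, written 5′ to 3′ on the strand of the gene. Capitals mark the E2F words searched, TTCGCGC and TTGGCGC, on either strand, and words that overlap run together as 1 stretch of capitals. Orc1 lies on the plus strand at chr4:108579204-108579503, E2f2 on the plus strand at chr4:136172024-136172323, Mcm5 on the plus strand at chr8:75109259-75109558 and Mcm6 on the minus strand at chr1:128359656-128359955.
Orc1: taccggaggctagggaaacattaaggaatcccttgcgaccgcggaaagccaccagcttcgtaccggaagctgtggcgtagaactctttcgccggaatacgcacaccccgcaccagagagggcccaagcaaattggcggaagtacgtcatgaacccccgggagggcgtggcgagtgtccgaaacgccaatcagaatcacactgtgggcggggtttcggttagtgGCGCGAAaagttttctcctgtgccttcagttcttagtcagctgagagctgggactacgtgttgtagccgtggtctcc
E2f2: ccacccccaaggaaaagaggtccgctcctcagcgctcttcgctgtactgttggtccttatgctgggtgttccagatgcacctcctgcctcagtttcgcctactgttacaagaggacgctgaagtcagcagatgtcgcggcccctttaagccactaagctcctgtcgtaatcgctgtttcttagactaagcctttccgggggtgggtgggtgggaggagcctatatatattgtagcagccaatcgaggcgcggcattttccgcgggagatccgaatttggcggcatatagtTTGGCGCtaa
Mcm5: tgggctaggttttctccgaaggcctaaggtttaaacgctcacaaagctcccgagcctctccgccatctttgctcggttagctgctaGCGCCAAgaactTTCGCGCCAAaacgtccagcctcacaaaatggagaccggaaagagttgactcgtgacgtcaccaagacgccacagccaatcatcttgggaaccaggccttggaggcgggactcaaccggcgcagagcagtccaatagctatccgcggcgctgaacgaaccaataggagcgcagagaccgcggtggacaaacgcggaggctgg
Mcm6: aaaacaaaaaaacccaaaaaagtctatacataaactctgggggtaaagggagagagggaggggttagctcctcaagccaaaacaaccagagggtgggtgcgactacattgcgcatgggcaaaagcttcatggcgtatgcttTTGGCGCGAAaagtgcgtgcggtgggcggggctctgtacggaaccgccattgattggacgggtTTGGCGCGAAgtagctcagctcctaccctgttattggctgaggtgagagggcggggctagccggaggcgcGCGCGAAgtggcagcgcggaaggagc

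The windows of Orc1 and E2f2 each hold 1 E2F word (a second E2f2 window in the table holds 0), that of Mcm5 holds 3 words in 2 stretches, and that of Mcm6 holds 5 words in 3 stretches. The table had windows for 40 of the 47 measured genes and none for Gins1, Gins2, Gins4, Mcm4, Pole, Prim2 and Rfc2. Of the 48 windows of these 40 genes, 15 hold an E2F word (31.2%), against 6.18% of the 15834 windows of all genes tested and 3.89% of the 32851 windows in the table. The word CCAAT, on either strand, is in 62.5% of the members' windows and in 37.6% of those of all genes tested. The 14 genes with an E2F word in a window had a median log2 difference of -0.16, between -0.42 and -0.03. The 26 genes with a window and no such word had a median of -0.15, between -0.40 and 0.08. Orc1, with 1 word, was at -0.42, Mcm6, with 5, was at -0.08, and Ccne1, whose window holds none, was at -0.40. A word is a match of letters and not a measured binding site. As E2F words only TTCGCGC and TTGGCGC were searched, so a gene counted without one may hold another form.

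Nearly all of these genes had slightly lower levels in the mutants, and none passed the test. Of the 47, 46 had a negative difference, against 45.0% of all rows, and the median was -0.13, a mutant level 0.912 times that of the control. The median over all rows was 0.02. In limma over all rows 0 of the 47 passed (smallest adjusted p = 0.162, for Orc1, and from 0.0864 to 0.513 for the member with the smallest value under the alternatives), where 0.0332% of all rows, 7 in number, did. At an unadjusted p under 0.05, 11 were lower and 0 higher, against 7.44% of all rows that were lower and 9.50% that were higher. The 11 were Orc1, Ccne1, E2f2, Rpa2, Orc2, Mcm7, Mcm5, Chaf1b, Pola2, Pold2 and Pola1. The count was 7 without control 1, 6 without control 2 and 5 without control 3, where 5.66%, 5.06% and 3.95% of all rows were lower. With median centring of the arrays it was 23, where 12.4% of all rows were lower. For 23 members every mutant lay below every control, against 11.9% of all rows, and for 0 members every mutant lay above, against 13.0% of all rows. Genes read from the same 6 embryos are not separate observations.

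**Figure D1:**
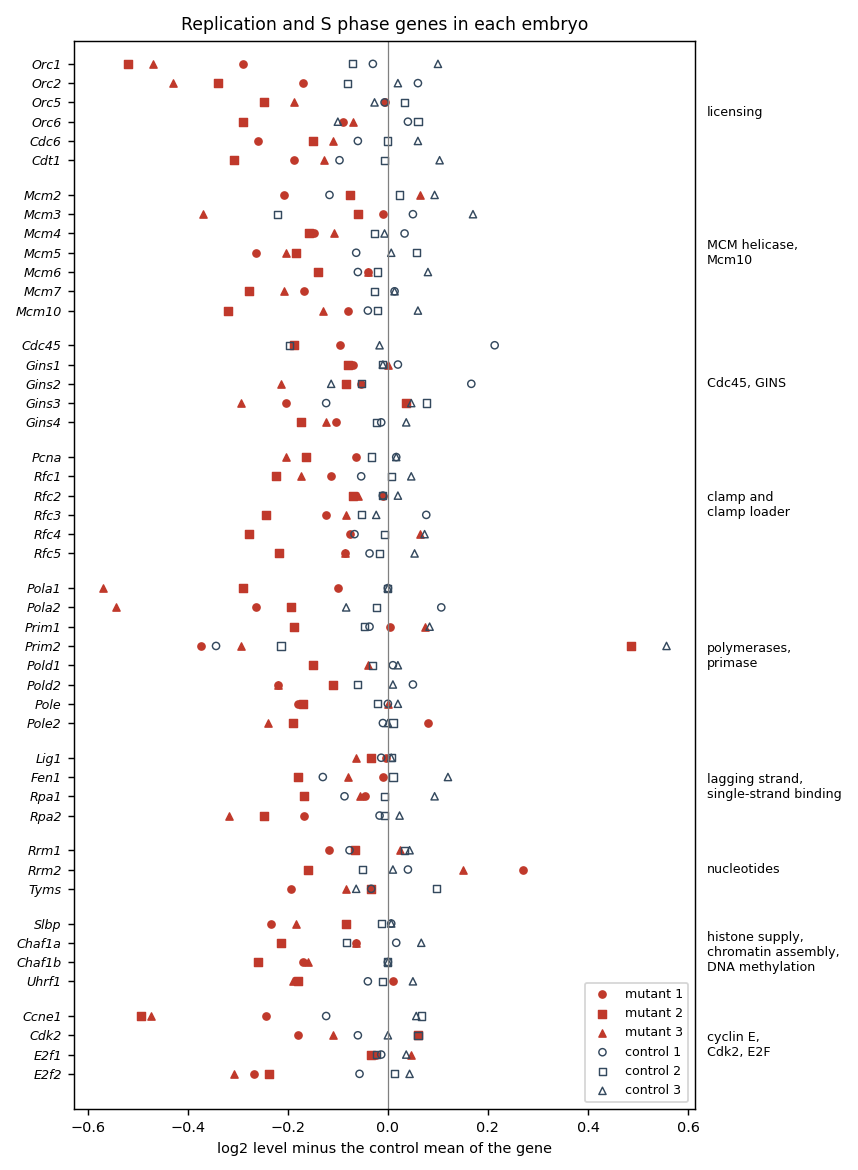
Each row is a gene, grouped by role, and the horizontal axis gives the log2 level in an embryo minus the mean of the 3 controls for that gene. Filled red symbols are mutants and open dark symbols are controls, with 1 shape per litter. Most red symbols lie left of 0, open symbols lie on both sides of it, and Prim2 is spread the widest in both groups.

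The shift was seen in each litter. The mutant was below its littermate control for 39 of 47 genes in litter 1, 43 in litter 2 and 43 in litter 3, where 47.9%, 47.8% and 45.0% of all rows were lower. The median differences within litters 1, 2 and 3 were -0.09, -0.15 and -0.16. For 32 of the genes the mutant was lower in all 3 litters, against 21.2% of all rows. The members' spread between embryos was small, with a median SD of 0.083 among mutants and 0.057 among controls, against 0.156 and 0.108 over all rows. That comparison is not matched for level, since 29 of the 47 members but 4259 of the 21064 rows lay at a level of 2 or over.

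Licensing genes had a median of -0.19 over 6 genes, all of them negative. Orc1, the largest subunit of the origin recognition complex, was at -2.50, -2.73 and -2.68 in mutants 1 to 3, against -2.24, -2.28 and -2.11 in controls 1 to 3. Each mutant lay below each control, and the difference of -0.42 (SE 0.09, 95% interval -0.66 to -0.19, limma adjusted p = 0.162) was the most negative of the 47 genes. The Orc1 probe lies on chromosome 4 between 108284772 and 108285679 in the mm9 annotation of the array. Orc2, another subunit of the complex, was at -0.73, -0.90 and -0.99 in mutants, against -0.50, -0.64 and -0.54 in controls (difference -0.32, SE 0.09, adjusted p = 0.213). Cdt1, which brings the helicase ring to origins, was at 3.80, 3.68 and 3.86 in mutants, against 3.89, 3.98 and 4.09 in controls. Its groups did not overlap, and the difference was -0.20 (SE 0.09). Cdc6, the loading ATPase, was at -0.17, while a second Cdc6 probe gave -0.01. Orc5 and Orc6 were both at -0.15, with overlapping groups.

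The genes of the helicase ring, Mcm2 to Mcm7, and of Mcm10, which helps to start unwinding, had differences between -0.22 and -0.07 with a median of -0.14 over 7 genes. Mcm7 was at 4.98, 4.87 and 4.94 in mutants, against 5.16, 5.12 and 5.16 in controls (difference -0.22, SE 0.07, adjusted p = 0.218). The authors' table lists Mir106b, Mir93 and Mir25, microRNAs that lie within Mcm7, beside its probe. Mcm5 was at 3.90, 3.98 and 3.96 in mutants, against 4.10, 4.22 and 4.17 in controls (difference -0.22, SE 0.07, adjusted p = 0.230). Mcm4 was at 4.28, 4.27 and 4.32 in mutants, against 4.46, 4.40 and 4.42 in controls, a difference of -0.13. In each of these 3 genes, as in Mcm10 (-0.17), all mutants lay below all controls, at mutant levels of 0.861 to 0.912 times the control level. Of all rows, 11.9% had all mutants below all controls. Mcm2 (-0.07), Mcm3 (-0.14) and Mcm6 (-0.08) overlapped between the groups, although the 6 subunits form 1 ring. A second probe of Mcm3 gave -0.16.

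Cdc45 and the 4 GINS genes, whose products join the ring to make the moving helicase, had a median of -0.13, and 0 of the 5 had an unadjusted p under 0.05. Gins4 was at 1.15, 1.08 and 1.13 in mutants, against 1.24, 1.23 and 1.29 in controls (difference -0.13, SE 0.06, adjusted p = 0.369), and was the sole one of the 5 whose groups did not overlap. In 11.9% of all rows every mutant lay below every control. Gins3 was at 3.23, 3.47 and 3.14 in mutants, against 3.31, 3.51 and 3.48 in controls. Cdc45 was at -1.41, -1.5 and -1.5 in mutants, against -1.10, -1.51 and -1.33 in controls, so that control 2 was as low as the mutants. Gins2 was at -0.12, with overlap, and Gins1 was at 2.09, 2.08 and 2.16 in mutants, against 2.18, 2.15 and 2.15 in controls, and its interval reached from -0.21 to 0.10. Without control 1 the median of the 5 genes was -0.05, and without mutant 3 it was -0.08.

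The clamp and its loader had a median of -0.14 over 6 genes. In 5 of the 6 every mutant lay below every control, against 11.9% of all rows. Without mutant 2 the median was -0.09. Pcna, the ring that holds polymerases on DNA and a usual mark of S phase cells, was at 5.41, 5.31 and 5.27 in mutants, against 5.49, 5.44 and 5.49 in controls (difference -0.14, SE 0.07, adjusted p = 0.363). Rfc1, the large subunit of the clamp loader, was at 2.93, 2.82 and 2.87 in mutants, against 2.99, 3.05 and 3.09 in controls (difference -0.17, SE 0.07). Rfc3 was at 0.28, 0.16 and 0.32 in mutants, against 0.48, 0.35 and 0.38 in controls. Rfc5 had a difference of -0.13 and Rfc2 of -0.05, in both without overlap. Rfc4, at -0.10, overlapped between the groups.

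**Figure D2:**
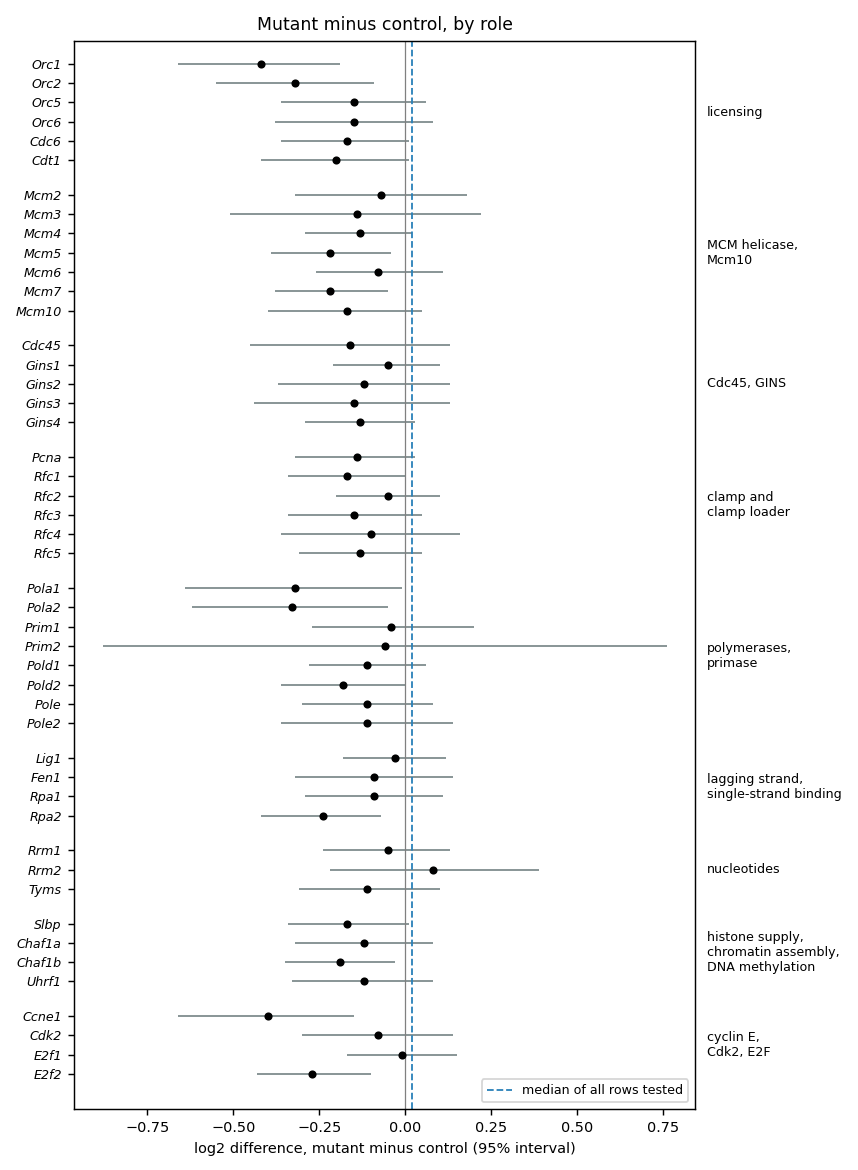
Points are the log2 difference of mutant minus control for each gene and bars its 95% interval from limma, not adjusted for the number of genes. The dashed line marks the median of all rows, 0.02. Orc1, Ccne1, Pola2, Pola1 and Orc2 lie farthest left, Rrm2 is the sole gene right of 0, and the interval of Prim2 is the widest.

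Among the polymerases, the genes of the polymerase alpha complex, which makes the primers, stood at both ends. Pola1, the catalytic subunit, was at 1.45, 1.26 and 0.98 in mutants, against 1.55, 1.55 and 1.55 in controls (difference -0.32, SE 0.13, adjusted p = 0.290). Mutant 3 was the lowest, and the controls were nearly equal. Pola2, its regulatory subunit, was at -1.65, -1.58 and -1.93 in mutants, against -1.28, -1.41 and -1.47 in controls (difference -0.33, SE 0.12, adjusted p = 0.248). The primase gene Prim1 was at 3.39, 3.20 and 3.46 in mutants, against 3.35, 3.34 and 3.47 in controls, with an interval from -0.27 to 0.20. Prim2, the other primase subunit, took a high and a low set of values that did not follow the groups. It was at 0.79, 1.65 and 0.87 in mutants and at 0.82, 0.95 and 1.72 in controls, so that mutant 2 and control 3, of different litters, both stood well above the other 4 embryos. Pold2, a subunit of polymerase delta, was at 1.07, 1.18 and 1.07 in mutants, against 1.34, 1.23 and 1.30 in controls (difference -0.18, SE 0.07, adjusted p = 0.289). Pold1, Pole and Pole2, of polymerases delta and epsilon, were at -0.11 each, and 2 further Pole probes gave -0.12 and, well above background on 4 arrays, 0.17.

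Of the genes that finish the lagging strand or coat single strands, 1 of 4 had every mutant below every control, against 11.9% of all rows. Rpa2, a subunit of the single-strand binding protein RPA, was at 1.28, 1.20 and 1.13 in mutants, against 1.43, 1.44 and 1.47 in controls (difference -0.24, SE 0.07, adjusted p = 0.211). Rpa1, the large subunit of the same protein, was at 4.69, 4.57 and 4.68 in mutants, against 4.65, 4.73 and 4.83 in controls (difference -0.09, interval -0.29 to 0.11). DNA ligase Lig1 was at 4.59, 4.56 and 4.53 in mutants, against 4.58, 4.60 and 4.60 in controls, and its interval from -0.18 to 0.12 was narrow. The flap nuclease Fen1 was at -0.09. The median of these 4 genes was -0.09, and it was 0.02 within slide 1, which holds mutant 1 and control 1, and -0.17 on slide 2. It was -0.14 without control 1, -0.04 without control 3 and -0.05 without mutant 2.

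The genes of nucleotide supply had a median of -0.05 over 3 genes, and 0 of them were without overlap. Of all rows, 11.9% were lower and 13.0% higher in the mutants without overlap. The median was -0.09 without control 1 or mutant 3, -0.03 without control 2 or control 3 and -0.02 without mutant 1. Rrm2, the regulated subunit of ribonucleotide reductase, was at 5.49, 5.06 and 5.37 in mutants, against 5.26, 5.17 and 5.23 in controls. Its difference of 0.08 (SE 0.12, interval -0.22 to 0.39) was the sole positive one among the 47, and mutant 2 lay below the controls while mutants 1 and 3 lay above them. With median centring, or without mutant 1, it was negative. Rrm1, the large subunit, was at 3.63, 3.68 and 3.77 in mutants, against 3.67, 3.78 and 3.79 in controls. Thymidylate synthase Tyms was at -1.19, -1.03 and -1.08 in mutants, against -1.03, -0.90 and -1.06 in controls.

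Of the genes of histone supply, chromatin assembly and DNA methylation behind the fork, the median was -0.14 over 4 genes. Chaf1b, a subunit of the chromatin assembly factor CAF-1, was at 3.66, 3.57 and 3.67 in mutants, against 3.83, 3.83 and 3.83 in controls (difference -0.19, SE 0.06, adjusted p = 0.239). Slbp, which binds histone messenger RNA, was at 0.86, 1.01 and 0.91 in mutants, against 1.10, 1.08 and 1.10 in controls (difference -0.17, SE 0.07, adjusted p = 0.311). In both genes a second probe was also lower in the mutants, at a difference of -0.12 for Chaf1b and -0.22 for Slbp. Chaf1a, another CAF-1 subunit, and Uhrf1, which recruits the maintenance DNA methyltransferase, were at -0.12 each, with overlap.

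The regulators of S phase entry held both the second most negative difference and one of the smallest. Ccne1, which encodes cyclin E1, was at 2.76, 2.51 and 2.53 in mutants, against 2.88, 3.07 and 3.06 in controls (difference -0.40, SE 0.10, interval -0.66 to -0.15, adjusted p = 0.189). All mutants lay below all controls, with mutant 1 the closest to them, and a second Ccne1 probe gave -0.53. E2f2, an activating E2F factor, was at 2.53, 2.56 and 2.49 in mutants, against 2.74, 2.81 and 2.84 in controls (difference -0.27, SE 0.07, interval -0.43 to -0.10, adjusted p = 0.188). E2f1, the other activating E2F of the list, was at 1.52, 1.51 and 1.59 in mutants, against 1.53, 1.52 and 1.58 in controls. Its interval, from -0.17 to 0.15, overlapped that of E2f2. The difference between E2f1 and E2f2 was not tested. Cdk2, the kinase partner of cyclin E, was at -0.08, with overlap.

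**Figure D3:**
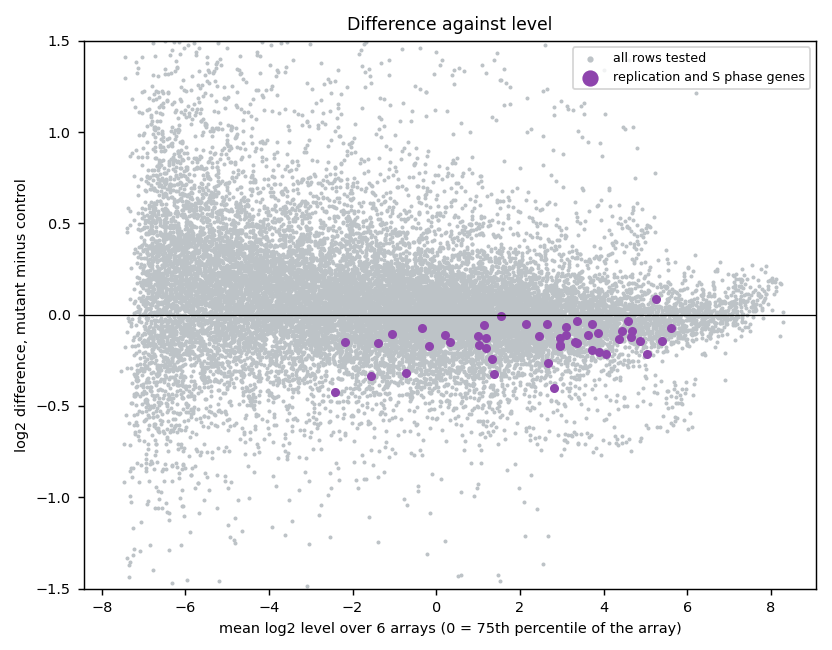
The horizontal axis is the mean log2 level over the 6 arrays, where 0 is the 75th percentile of an array, and the vertical axis the log2 difference of mutant minus control. Grey points are all rows tested, of which 150 lie outside the plotted range of 1.5, and purple points are the replication and S phase genes, all but 1 of them below 0.

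The differences of all rows depended on level. The members' levels ran from -2.42 to 5.60. The 12260 rows of that range had a median of -0.01, and 52.3% of them were negative. Among rows at a level of 2 or over, the 29 members had a median of -0.12 and all 4259 rows of -0.03. From 0 to 2 the 10 members were at -0.14 and all rows at -0.01, and below 0 the 8 members were at -0.17 and all rows at 0.08. With median centring the median of all rows was -0.08 in place of 0.02, and that of the members was -0.24. Either scaling subtracts a single value from each array, so the gap of 0.16 between members and all rows could not differ. With quantile normalization, which can change the gap, the members stood 0.11 below all rows, and with normexp background correction 0.23 below.

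In the authors' deposited table, made from the same arrays, 45 of the members' 47 probes have a log2 ratio below 0, with a median of -0.125 against -0.016 over all probes. The authors' deposited table gives an fdr for 7 of them, and 0 are under 0.05. Of all its 27269 probes, 11483 have an fdr, and 357 are under 0.05. For the members without an fdr, among them Chaf1b, Mcm5, E2f2 and Rpa2, it gives no adjusted result. The smallest fdr of a member in the authors' deposited table is 0.0529, for Orc1, at a log2 ratio of -0.439.

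Other genes of replication, from a list that holds none of the members, had a median of -0.09. Of these, 48 of 56 were negative, against 45.0% of all rows. In limma over all rows 0 passed, and at an unadjusted p under 0.05, 11 were lower and 1 was higher, against 7.44% and 9.50% of all rows. Dctpp1, which removes damaged nucleotides, was at 5.06, 4.94 and 4.95 in mutants, against 5.29, 5.49 and 5.45 in controls (difference -0.42, SE 0.09, adjusted p = 0.148). Dbf4, the activator of the kinase Cdc7 that fires origins, was at 0.35, 0.29 and 0.26 in mutants, against 0.61, 0.60 and 0.61 in controls (difference -0.31, SE 0.06, adjusted p = 0.152). Mcm8, a helicase outside the Mcm2 to Mcm7 ring (-0.29), and Cdca7, a chromatin protein of cycling cells (-0.33), came next, each with all mutants below all controls. Without control 2 or control 3, 6 of the 56 genes had an unadjusted p under 0.05 in either direction, in place of 12. The share of all rows was then 12.5% and 9.07%, in place of 16.9%.

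Genes of mitosis, the next stage that dividing cells pass through, stood closer to all rows by their median of -0.04 (-0.07 without mutant 3). By sign they leaned lower, with 39 of 51 negative against 45.0% of all rows. In limma 0 of them passed, with 1 higher and 1 lower of 51 at an unadjusted p under 0.05, where 9.50% of all rows were higher and 7.44% lower. These were the kinetochore gene Spc25 (0.33, SE 0.12) and the kinesin gene Kif20a (-0.20, SE 0.07), followed by the spindle checkpoint kinase Ttk (-0.26) and the kinesin gene Kif23 (-0.19). D-type cyclins with Cdk4, Cdk6 and the Cdk inhibitors had a median of 0.14 over 10 genes, where 0 passed and 2 were higher at an unadjusted p under 0.05, as were 9.50% of all rows. Those were the inhibitors Cdkn1c (0.57, SE 0.21, adjusted p = 0.266) and Cdkn2d (0.23, SE 0.09, adjusted p = 0.276). The inhibitors Cdkn1a, Cdkn1b and Cdkn2c were at 0.47, 0.17 and 0.20, and the cyclin genes Ccnd1, Ccnd2 and Ccnd3 at -0.04, -0.09 and -0.09. The kinase genes Cdk4 and Cdk6 were at 0.11 (SE 0.06) and -0.43 (SE 0.27). The listed inhibitors Cdkn2a and Cdkn2b were too dim to be kept. Whether the lists differ from the replication and S phase genes was not tested.

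Genes of other cells and stages also differed between the embryos, given here as each list's median log2 deviation from the control mean. The 47 replication and S phase genes stood at -0.11 in mutant 1, -0.17 in mutant 2 and -0.12 in mutant 3, with controls between -0.01 and 0.02. The 24 neuronal genes, all with a positive difference, stood at 0.08 in mutant 1, 0.45 in mutant 2 and 0.63 in mutant 3, with controls between -0.09 and 0.11. By this median mutant 1 lay within the control range for neuronal genes, while by their summed signal all mutants lay above it. Basal progenitor genes (13 of 14 positive) ran from 0.07 to 0.42 in mutants and from -0.02 to 0.03 in controls, and radial glial genes (11 of 13 positive) from 0.17 to 0.33 in mutants and from -0.02 to 0.04 in controls.

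Summed over its genes, in multiples of the 75th percentile, neuronal signal was 156 to 228 in mutants and 141 to 151 in controls. The sum was 95.1 to 122 in mutants and 81.9 to 85.6 in controls for basal progenitors, and 192 to 218 in mutants and 164 to 166 in controls for radial glia. Microglial and macrophage genes were negative for 12 of 12, with sums of 2.35 to 3.95 in mutants and 3.07 to 3.64 in controls. Erythroid genes, which also mark blood in the sample, were negative for 12 of 12, with sums of 474 to 758 in mutants and 684 to 776 in controls, and mutant 3 had a median of -0.99. Endothelial genes (7 of 12 positive) summed to 8.34 to 12.5 in mutants and 9.73 to 11.7 in controls.

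By list median, marker genes of tissue at the edge of the cortex varied most among the mutants. The amount of such tissue was not measured. Cortical hem genes (9 of 12 positive) stood at 1.38, 0.65 and -0.69 in mutants 1 to 3, with sums of 1.64 to 17.6 in mutants and 7.08 to 9.06 in controls. Choroid plexus genes (4 of 6 positive) summed to 2.07 to 3.72 in mutants and 0.41 to 2.39 in controls, and genes of the meninges and mesenchyme (8 of 14 positive) to 15.5 to 45.8 in mutants and 21.4 to 31.3 in controls. Of the defining choroid plexus markers, Ttr was above background on 1 mutant and 0 control arrays, and Kcne2 and Cldn2 on 0 of either. The part of these lists in the values of the replication genes was not tested.

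**Figure D4:**
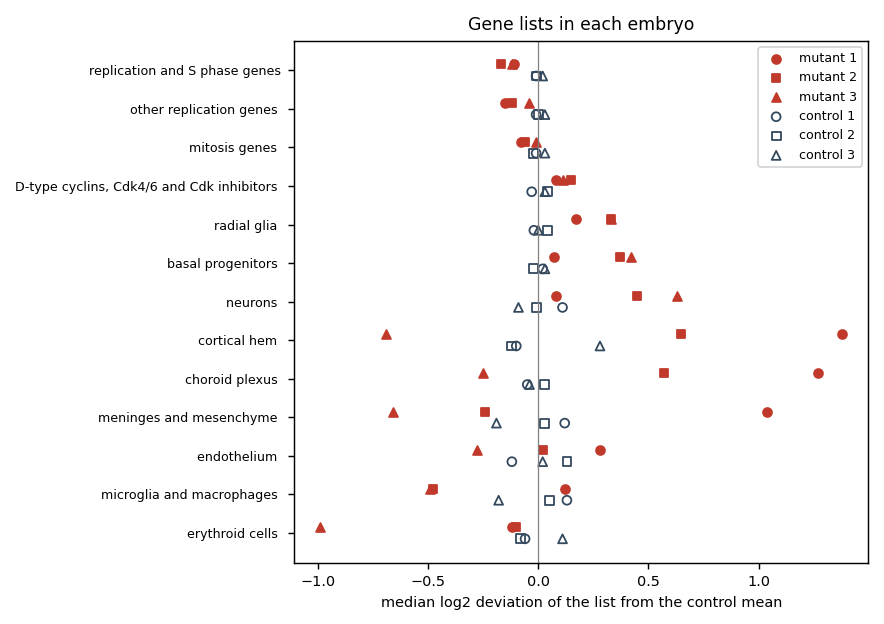
Each row is a gene list and the horizontal axis gives the median log2 deviation of its genes from the control mean in an embryo. Filled red symbols are mutants and open dark symbols are controls, with 1 shape per litter. The replication and S phase genes of the 3 mutants sit close together between -0.17 and -0.11, below the controls, while hem, choroid plexus and meningeal genes are spread widely among the mutants.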

How the data were processed

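Per the file headers, the deposited scanner files give the intensity of each spot on a linear scale, read by the authors from arrays of design 026655 (mm9 grid) in version 10.7.3.1 of Feature Extraction, with flags for outlier, saturated and well-above-background spots. The deposited headers list background subtraction and detrending fits for each array, and arrays differed in overall signal before scaling. The authors' deposited table holds log2 values, log2 ratios, the linear ratio, and p-values with an fdr of mutant against control, and the submitters' processing notes name limma without a version. Its column numbers do not follow the sample titles (the first mutant column correlates with mutant 2 at 0.904), so that columns were used by group.

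Here outlier spots were left out, spots of a probe averaged, and log2 of the processed signal scaled to the 75th percentile of the 43020 non-control spots. A probe stayed (26849 did) if 3 or more of the 6 arrays flagged it as well above background, and the brightest stood for its gene. Probes were named by accession (26527) in RefSeq GRCm38.p6, or else by the symbols in the authors' table, and 9741 stayed unnamed. The table has a Gene Symbol column that names 25 of the members and Agilent's own symbol column, which names the others. The test was limma's moderated linear model (lmFit, then eBayes; version 3.58.1, R 4.3.3), two-sided, with Benjamini-Hochberg adjustment over all 21064 rows and a threshold of 0.05, and Python 3.11.15, pandas 2.3.3, numpy 2.4.6 and matplotlib 3.10.9 did the rest. The fit was tested on simulated data with independent noise for each row and embryo, and no correlation within litters or slides. There the fit called 66 of 100 rows moved by a log2 difference of 1, 95 of 100 moved by 2, and 5 rows that were not moved. Its rates on the real arrays may differ. Differences as small as those of the members were not simulated, so how often the fit would call them is not known.

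Litters pair the samples, per the titles. Across rows, littermates' deviations from their group means had correlations of 0.308, 0.357 and 0.107. Pairs from different litters ran from -0.41 to 0.109, so that litter 3 did not stand out. In litter 1, litter and slide cannot be told apart. The samples are separate embryos, and slide 1 held mutant 1 and control 1, slide 2 the other 4. The members and lists were chosen with earlier results of these data known. Values in every embryo are given, in each role group, for the 3 members of smallest unadjusted p (2 in groups under 5), and for the 6 lowest and 6 highest signed differences; of other replication, mitosis and cyclin lists the 4 genes of smallest p are named. Other genes, such as Prim2 for its spread, the rest of the cyclin list, Pax6 and Ttr, were chosen after their values were seen. Alternatives changed scaling, background correction (normexp on the median signal and median background, offset 50), filter, probe choice, block, variance model, values, threshold and embryos. The symbol column alone as a rule was added after seeing the data.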

Additional observations from a re-analysis of the deposited data

How the results depend on the processing

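The direction of the members' median held under each scaling, background correction, probe choice and omission tried. Filter, block and variance model could not change it. All 47 genes were above background on all 6 arrays, and each block held equal numbers of mutants and controls. The variance model does not enter the differences. The members' median was -0.24 with median centring and -0.09 within slide 1, and otherwise lay between -0.15 and -0.12, which covers each omission of an embryo. Between 39 (within slide 1) and 47 (median centring) of the 47 genes were negative, and 0 passed the threshold of 0.05 under any alternative. At an adjusted p under 0.1, 0 passed in the reported fit. The smallest limma adjusted p of a member was under 0.1 in some alternatives. It was 0.0864 with normexp and 0.0986 with no filter, each for Ccne1, and 0.0956 for E2f2 with trend and robust variance. The count lower at an unadjusted p under 0.05, 11, was 23 with median centring (12.4% of all rows lower, against 7.44%), 6 of 25 with the Gene Symbol column alone, and 5 to 14 without single embryos (3.95% to 8.71% of all rows). With litter as a block (the replicate pairing) it was 9, and the block changed no call of a member or list. Of all rows, 7 passed, but 0 with litter as a block, with slide as a block, with no filter or on slide 2 alone, 0 to 1 without single embryos, 2 with the mean of probes, 15 with quantile normalization, 21 with median centring, 23 with the filter on all 6 arrays, 34 with the authors' log2 values, 78 at an adjusted p under 0.1, 123 with normexp and 141 with trend and robust variance. Unadjusted counts for the 0s were 4180, 4148, 7914 and 3846. With median centring the role medians, in the order of the text, were -0.29, -0.25, -0.23, -0.24, -0.22, -0.19, -0.15, -0.25 and -0.27, and those of other replication, mitosis and cyclin genes -0.19, -0.14 and 0.04 (cyclin genes 0.09 with the mean of probes). Within slide 1 the median was -0.09 for the helicase ring, -0.06 for the clamp, 0.02 for the lagging strand and -0.12 for cyclin E and E2F genes. On slide 2 it was -0.19 for the ring, -0.08 for Cdc45 and GINS and -0.17 for the lagging strand. Without single embryos it ran from -0.19 to -0.12 for the ring, -0.14 to -0.05 for Cdc45 and GINS, -0.16 to -0.11 for the polymerases and -0.07 to -0.03 for mitosis genes. Signs of E2f1, Prim1, Prim2 and Rrm2 turned under 2 to 5 of 18 alternatives and those of 6 others within slide 1 alone. The cause was not tested. The slide comparison within slide 1 rests on 1 embryo of each group and allows no test.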
